A study of Mus musculus with 4 samples.

Results

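Carriers that bring glucose and amino acids into cells were examined in mammary tissue of mice labelled wild type or knockout for STAT5, a transcription factor switched on by prolactin and growth hormone. The set comprised 10 genes, Slc2a1, Slc2a3, Slc1a4, Slc1a5, Slc3a2, Slc7a1, Slc7a2, Slc7a5, Slc38a1 and Slc38a2, taken by exact gene symbol. The genes were chosen for what they carry, but with earlier results of these data known. They are read by 26 of the 45037 probe sets analysed, and all 10 had at least 1 probe set bright enough to test, against 11360 tested genes in all. The tissue came from 2 mice with genotype STAT5 WT and 2 mice with genotype STAT5 KO, sampled at 6 days, with 1 array for each mouse. The event from which the days are counted, the deleted gene or exons, the driver of any Cre, and the strain and age of the mice are not given in the sources used here. The labels name no treatment.

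A milk-making cell takes up glucose as the source of lactose and of much of its fat, and amino acids as the building blocks of caseins and other milk proteins. Glucose enters through facilitative carriers of the SLC2 (GLUT) family, of which GLUT1 is the main form known in mammary epithelium. Amino acids enter through systems that differ in what they carry. The cationic amino acid transporters take arginine and lysine, the large neutral system takes leucine and its relatives in exchange for other amino acids, the ASC carriers exchange small neutral amino acids and glutamine, and system A takes small neutral amino acids together with sodium.

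Of the 10 transporters, 1 fell in KO and 0 rose (limma; 3 lower and 1 higher at an unadjusted p below 0.05). The gene that fell was Slc7a2, a carrier of arginine and lysine, whose KO mean was 39.4% of the WT mean. This count stands beside a background of 2.57% of all tested genes called in either direction (1.36% lower, 1.21% higher). Called means a limma p, adjusted over all tested probe sets, below 0.05. The share of all tested genes at an unadjusted p below 0.05 is not given. For 1 transporter probe set (Slc1a4, 1423550_at) a limma p of 0.04995 gave an adjusted p of 0.255. Under this adjustment, p divided by adjusted p is about the share of all tested probe sets with a p that small. Counts at the unadjusted level, here and below, have no share of genes beside them and are not read as results about the genes. Slc2a3, a glucose carrier, had the largest difference of the set, higher in KO, and did not pass. Slc7a1, the second cationic carrier, and Slc1a4, a carrier of serine, alanine and threonine, were below the WT signals on both KO arrays and did not pass either. The remaining 6 genes had KO means between 63.1% and 116% of WT. The median log2 difference over the 10 genes was -0.12, against -0.01 over all tested genes. All log2 differences are KO minus WT of log2(signal + 16), which understates the change of dim genes. Signals of different probe sets are not on a common scale, so levels were compared only within a probe set.

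**Figure D1:**
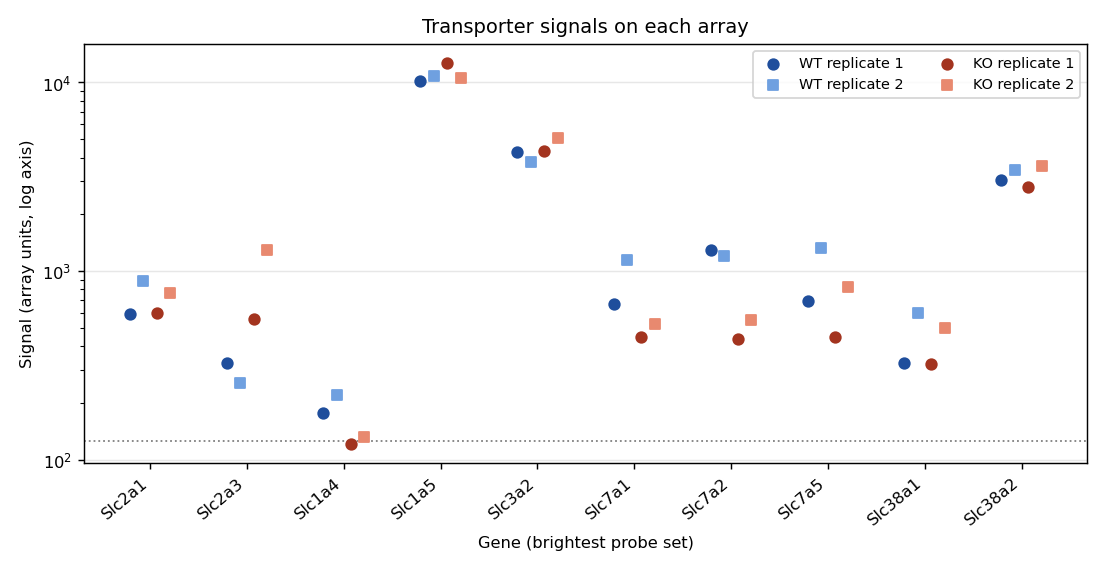
Signal of the brightest probe set of each transporter (log axis, array units) on WT replicates 1 and 2 (blue) and KO replicates 1 and 2 (red), with the limit for testing as a dotted line at 125.9. Both KO points of Slc7a2, at 434.9 and 549.9, lie below both WT points, whereas for Slc7a5 and Slc38a1 the replicates of a genotype lie as far apart as the genotypes.

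The genes of STAT5 itself were read on the KO arrays too. For Stat5a, 2307 and 2061 on WT stood against 1836 and 861 on KO (log2 difference -0.79, limma adjusted p = 0.246). For Stat5b, 1522 and 1506 on WT stood against 1069 and 712 on KO (-0.78, adjusted p = 0.102). The KO signals were lower for both genes, most so on KO replicate 2. A second tested probe set of each gene differed more and did not pass either. The log2 differences were -1.22 for Stat5a (limma adjusted p = 0.106) and -0.97 for Stat5b (adjusted p = 0.121). A probe set outside the deleted part would not check the genotype. Summed signals of marker lists described the tissue. Epithelial markers (17 of 18 on the array, none at 0) summed to 69.7% of the WT mean on KO replicate 1 and 110% on KO replicate 2, and basal and myoepithelial markers to 63.9% and 94.8%. White adipocyte markers summed to 103% and 107%, fibroblast markers to 101% and 102%, endothelial markers to 116% and 97.8%, macrophage markers to 123% and 123%, and skeletal muscle markers to 507% and 284%. Of the 10 tested muscle markers, 5 rose and 0 fell by limma, beside 1.21% and 1.36% of all tested genes. Both KO arrays lay above both WT arrays for 9 of them (26.2% of all tested genes), and their median log2 difference was 2.68. B and T cell markers summed to 41.7% and 71.0% and red blood cell markers to 91.7% and 168%, with 1 marker of each list bright enough to test. In such bulk samples, fewer cells of a type and less RNA per cell cannot be told apart.

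Slc7a2 encodes CAT2, a carrier of arginine, lysine and ornithine whose splice forms differ in affinity. Its brightest probe set (1436555_at) read 1300.2 and 1199 on WT, and the KO signals were 434.9 (replicate 1) and 549.9 (replicate 2). The WT arrays lay close together, both KO arrays were lower, and the genotypes did not overlap. The signal fell from 1249 ± 71.8 to 492 ± 81.3 (SD, n = 2), which is -1.32 on the log2 scale (SE 0.17, 95% interval -1.73 to -0.92; limma adjusted p = 0.0261). Of all tested genes, 2.09% had an absolute difference at least as large. The other 3 Slc7a2 probe sets were below the limit for testing on their mean. They read 22.3 to 72.0 on WT and 9.41 to 57.5 on KO, with log2 differences of -0.37, -0.39 and -0.56, all in the same direction, with overlapping genotypes at 1 of them. The call rests on 1 probe set and on both WT arrays. It was lost without WT replicate 1 (adjusted p = 0.0765), without WT replicate 2 (0.108), with no filter on dim probe sets (0.0876) and after centring on epithelial markers (0.381), and the mean of its 4 probe sets, -0.66, was too dim to test.

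Slc7a2 stood at 34.8% of the WT mean on KO replicate 1 and 44.0% on KO replicate 2, beside epithelial marker sums of 69.7% and 110%. The sum gives most weight to the brightest markers. Gene by gene, the 17 epithelial markers had a median log2 difference of -0.40. Of them, 8 lay below both WT arrays on both KO arrays and 3 above, beside 27.5% and 26.2% of all tested genes. By limma 1 fell and 1 rose (6 lower and 2 higher at an unadjusted p below 0.05), beside 1.36% and 1.21%. With each array centred on the mean of the epithelial markers, the log2 difference of Slc7a2 was -1.07 and did not pass (limma adjusted p = 0.381). The part of epithelial content in the Slc7a2 difference was not tested.

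**Figure D2:**
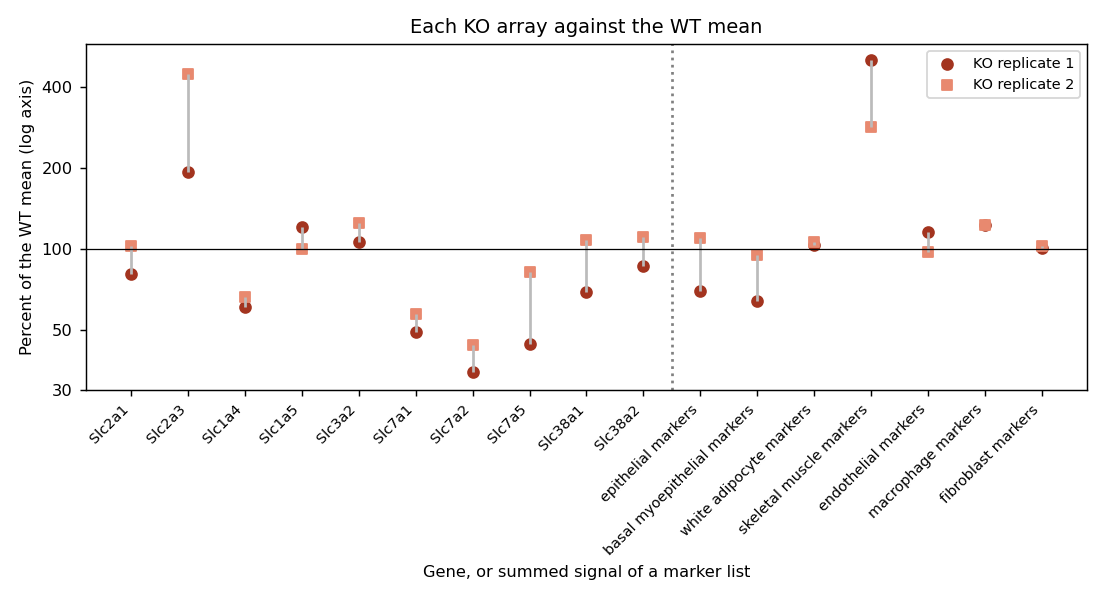
Signal on each KO array as a percentage of the mean of the WT arrays (log axis), for the brightest probe set of each transporter (left of the dotted line) and for the summed signal of 7 marker lists (right). Slc7a2 stands at 34.8% and 44.0%, Slc7a1 at 49.0% and 57.6%, and Slc2a3 at 193% and 448%, while the summed epithelial markers stand at 69.7% and 110%.

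Slc7a1 encodes CAT1, the widely expressed carrier of arginine and lysine. Its brightest probe set (1454991_at) read 671 and 1145 on WT and 445 and 523 on KO. All KO signals were lower, but WT replicate 2 was 1.71 times WT replicate 1. The KO mean was 53.3% of WT, and the difference was -0.84 on the log2 scale (SE 0.26, 95% interval -1.46 to -0.23; limma adjusted p = 0.144). A second probe set (1454992_at) read 432 and 637 on WT and 295 and 309.9 on KO, a difference of -0.76 (adjusted p = 0.120), and the remaining one, dim, gave -0.83 with no test. At each of the 3 the highest KO signal was under the lowest WT signal. The difference depended on which WT array was kept. It was -1.22 without WT replicate 1 (adjusted p = 0.0732), and leaving out the other WT array gave -0.46 (adjusted p = 0.512).

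Promoter windows around the RefSeq gene start (GRCm38.p6) were available for 5 of the 10 transporters, as 6 windows of 300 bases. The windows of the cationic carrier Slc7a1 and of the ASC carrier Slc1a4 are printed because they were the ones with a match to a searched motif. Neither gene passed the test, and with 6 windows the matches cannot be set against the share in all windows. The letters TTCNNNGAA, the core of the STAT binding motif, were found on either strand in 8.30% of all 32851 windows and in 1 of the 6 transporter windows, at a downstream start of Slc7a1. The letters TGATGNAAN, the core of the amino acid response element, were found in 3.95% of all windows and in 1 of the 6, that of Slc1a4. Each window is printed 5′ to 3′ along the gene's strand with the match in capitals. In Slc7a1 the match begins 146 bases before the start site (window chr5:148392766-148393065, minus strand). In Slc1a4 the match lies on the other strand (window chr11:20332664-20332963, minus strand). Along the printed strand it runs from 5 bases before the start site to past it, so it spans the start site. The match in these letters describes the sequence and does not show that a factor binds there.
Slc7a1: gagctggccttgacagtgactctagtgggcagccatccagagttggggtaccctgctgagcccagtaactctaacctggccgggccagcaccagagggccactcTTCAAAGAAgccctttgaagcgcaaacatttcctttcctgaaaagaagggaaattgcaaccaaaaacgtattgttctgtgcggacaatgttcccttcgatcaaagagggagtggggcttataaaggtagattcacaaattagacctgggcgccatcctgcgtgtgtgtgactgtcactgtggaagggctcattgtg
Slc1a4: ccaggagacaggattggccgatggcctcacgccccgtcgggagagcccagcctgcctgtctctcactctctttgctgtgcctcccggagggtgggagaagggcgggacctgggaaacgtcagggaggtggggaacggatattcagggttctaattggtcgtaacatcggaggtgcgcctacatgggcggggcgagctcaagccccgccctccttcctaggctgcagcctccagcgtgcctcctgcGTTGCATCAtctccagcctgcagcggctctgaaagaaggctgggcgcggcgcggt
The other Slc7a1 window, at its most upstream start, and the windows of Slc2a1, Slc3a2 and Slc38a2 held neither motif. Slc2a3, Slc1a5, Slc7a2, Slc7a5 and Slc38a1 were not analysed here for promoter sequence.

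Slc7a5 and Slc3a2 encode the light and heavy chains of LAT1/CD98, the exchanger that brings leucine and other large neutral amino acids into the cell. Slc7a5, the chain that carries the substrate, is read by 1 probe set (1418326_at), at 691 and 1321 on WT and 445 and 825 on KO. Replicate 2 was 1.91 times replicate 1 on WT and 1.85 times on KO, and the genotypes overlapped. On the log2 scale KO differed by -0.64 (SE 0.37, 95% interval -1.53 to 0.24; limma adjusted p = 0.394). It ranged from -1.10 without WT replicate 1 to -0.18 without WT replicate 2. Slc3a2, the heavy chain that several light chains share, read 4287 and 3802 on WT and 4310.0 and 5054 on KO. The KO arrays lay above the WT arrays, KO replicate 1 by little. The difference was 0.21, with a 95% interval from -0.12 to 0.54 (adjusted p = 0.462), so neither chain of the exchanger was called.

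Slc1a4 and Slc1a5 encode ASCT1 and ASCT2, which exchange small neutral amino acids, the latter also glutamine. The brightest Slc1a4 probe set (1423549_at) read 178 and 221 on WT and 122 and 133 on KO, close to the limit for testing. The KO mean was 63.7% of WT and the difference -0.58 on the log2 scale (SE 0.21, 95% interval -1.10 to -0.07; limma adjusted p = 0.203). Its second tested probe set gave -0.63 (adjusted p = 0.255) with no overlap of the genotypes, and the third, too dim to test, gave -0.47 with overlap. Slc1a5 read 10162 and 10822 on WT and 12683 and 10546 on KO. The KO arrays lay on either side of the WT arrays, and the log2 difference was 0.14 (95% interval -0.17 to 0.45, adjusted p = 0.611). A second probe set gave 0.22 (adjusted p = 0.697), where KO replicate 1 was 1.70 times KO replicate 2.

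Slc38a1 and Slc38a2 encode SNAT1 and SNAT2, sodium-coupled carriers of system A that take glutamine, alanine and other small neutral amino acids. Slc38a2 is known to be induced when amino acids run short. The brightest Slc38a1 probe set (1454764_s_at) read 327 and 600.5 on WT and 323 and 500.0 on KO. Replicate 2 was the higher array within each genotype, and the genotypes overlapped. KO minus WT was -0.14 (SE 0.32, 95% interval -0.91 to 0.63; limma adjusted p = 0.856), with a difference of -0.33 at the other probe set (adjusted p = 0.614). Slc38a2 (1426722_at) read 3043 and 3431 on WT and 2799 and 3600.2 on KO, overlapping throughout. Its difference was -0.03 (SE 0.16, 95% interval -0.41 to 0.36; adjusted p = 0.950), the smallest in absolute size of the 10. The sign of the difference of Slc38a2 turned with centring on the array median (0.06), and those of Slc38a2 (0.23), Slc38a1 (0.12) and Slc2a1 (0.16) with centring on epithelial markers.

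Slc2a1 encodes GLUT1, the carrier that supplies glucose to the mammary epithelium for lactose synthesis. Its brightest probe set (1434773_a_at) read 595 and 886 on WT and 599.8 and 762 on KO, with the KO values inside the WT range. KO differed by -0.10 on the log2 scale (SE 0.23, 95% interval -0.64 to 0.44; limma adjusted p = 0.853). The other 2 probe sets gave -0.27 (adjusted p = 0.519) and -0.08 (adjusted p = 0.868), and the genotypes overlapped at all 3.

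Slc2a3 encodes GLUT3, a high-affinity glucose carrier known from neurons and white blood cells. Its brightest probe set (1437052_s_at) read 325 and 255 on WT and 559 and 1299 on KO. Both KO arrays were higher than both WT arrays, and KO replicate 2 was 2.32 times KO replicate 1, a gap reached by 1.07% of tested genes. The mean was 289.7 ± 49.3 on WT and 929 ± 523 on KO (SD, n = 2), or 1.52 on the log2 scale (SE 0.37, 95% interval 0.64 to 2.40; limma adjusted p = 0.0878). A second probe set from the same source sequence (1455898_x_at), of a type that can also hybridise with related sequences, gave 1.13 (adjusted p = 0.175), and the pair shares its target. Of the 2 probe sets below the limit, 1421924_at gave 1.004, again with both KO arrays above both WT arrays, and 1427770_a_at gave 0.07 with overlap. The brightest probe set passed without KO replicate 1 (2.11, adjusted p = 0.00494) and with centring on epithelial markers (1.77, adjusted p = 0.00512), and gave 0.92 without KO replicate 2 (adjusted p = 0.0706).

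Of the 10 macrophage markers tested, 6 lay above both WT arrays on both KO arrays, beside 26.2% of all tested genes, and 0 were called by limma in either direction (6 at an unadjusted p below 0.05). Their sum, which gives most weight to the brightest markers, was 35908 and 32183 on WT and 41932 and 41751 on KO. The part of macrophages in the Slc2a3 signal was not tested. The genes whose profile over the 4 arrays was nearest to that of Slc2a3, by Euclidean distance of centred log2 values, were Col8a1, a short-chain collagen (distance 0.29), Fbxo31, an F-box protein (0.30), and Cebpd, a stress-responsive transcription factor (0.32). Their log2 differences, which this selection itself brings near that of Slc2a3, were 1.69, 1.55 and 1.27. Col8a1 passed the threshold (limma adjusted p = 0.0485), while its second tested probe set did not (adjusted p = 0.174). The Col8a1 call was lost when either WT array was removed, with no filter, with no variance trend and with probe sets averaged.

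**Figure D3:**
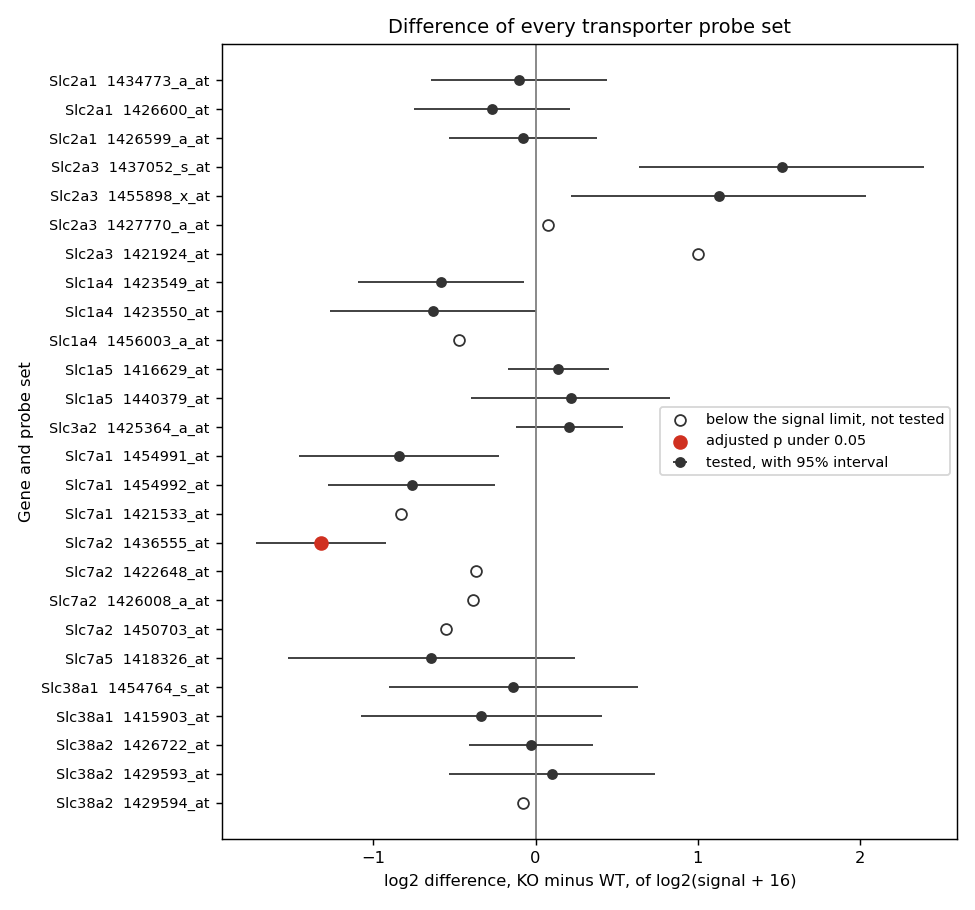
log2 difference (KO minus WT) of all 26 transporter probe sets, grouped by gene. Filled points carry the 95% interval of the limma fit, open points were below the limit and not tested, and red marks the 1 probe set past the threshold, that of Slc7a2 at -1.32.

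Over the set as a whole, both KO arrays lay below both WT arrays for 3 of 10 genes (Slc7a1, Slc7a2 and Slc1a4), where 27.5% of all tested genes did so, and above for 2 (Slc2a3 and Slc3a2), where 26.2% did. Together 5 of 10 did not overlap, beside 53.7% of all tested genes, so these shares are near the background. At the level of probe sets, 18 of the 26 passed the filter. Of these, 5 were lower and 3 higher without overlap and 10 overlapped, beside 51.9% of all tested probe sets without overlap in either direction.

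**Figure D4:**
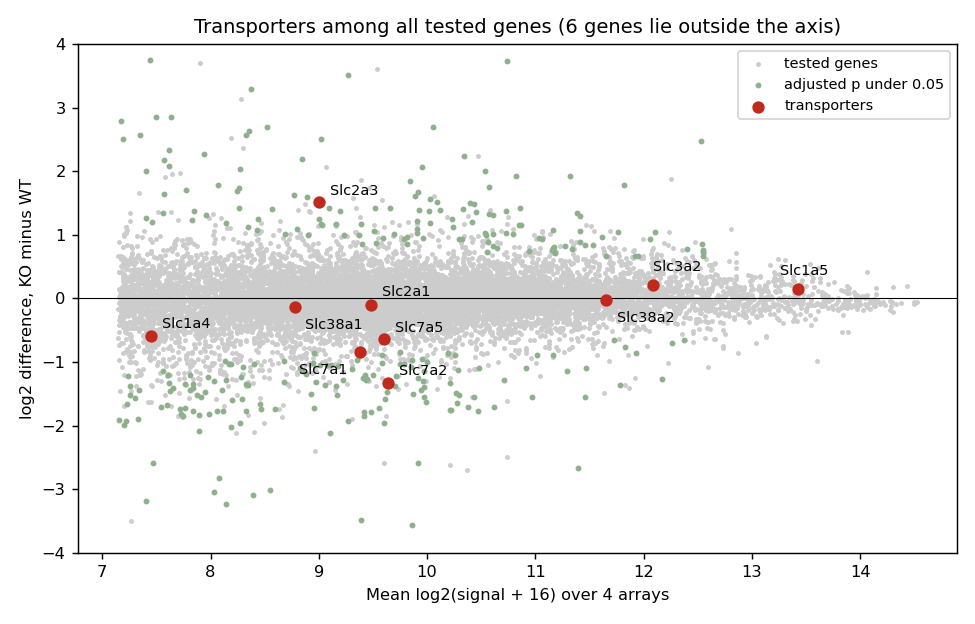
log2 difference (KO minus WT) against the mean of log2(signal + 16) over the 4 arrays for the 11360 tested genes (grey, green where called), with the 10 transporters in red. Slc7a2 at -1.32 and Slc2a3 at 1.52 lie outside the main band of genes, and the other 8 lie between -0.84 and 0.21.

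The mice of a genotype differed from one another in several of these carriers. The median absolute log2 gap between the WT arrays was 0.31 over the 10 genes and 0.16 over all tested genes, and between the KO arrays it was 0.33 against 0.18. WT replicate 2 was higher than WT replicate 1 for 7 of the 10, against 50.1% of all tested genes, and KO replicate 2 was higher than KO replicate 1 for 9, against 55.2%. The largest WT gaps were those of Slc7a5 (0.92), Slc38a1 (0.84) and Slc7a1 (0.76), gaps reached by 1.43%, 1.83% and 2.66% of tested genes. On the KO arrays Slc2a3 (1.19), Slc7a5 (0.87) and Slc38a1 (0.61) differed most. For Slc7a2 the WT arrays were 0.12 apart on the log2 scale, a gap reached by 61.7% of tested genes, and the KO arrays 0.33 apart.

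Other carriers of sugars and amino acids were read from lists of whole families. Of 11 tested sugar carriers outside the set, 0 were called by limma in either direction, and 2 (Slc2a5 and Slc5a1) had an unadjusted p below 0.05. Their median log2 difference was 0.02. The fructose carrier Slc2a5 read 1233 and 408 on WT and 422 and 103 on KO (-1.67, adjusted p = 0.243) and the genotypes overlapped. The WT arrays differed 3.02-fold and the KO arrays 4.08-fold, beside a 3.13-fold difference of the genotype means. The sodium-glucose cotransporter Slc5a1 read 197 and 267 on WT and 95.1 and 149.7 on KO, lower on both KO arrays (-0.86, adjusted p = 0.156).

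Of 23 tested amino acid carriers outside the set, 1 rose and 0 fell, beside 1.21% higher and 1.36% lower among all tested genes. At an unadjusted limma p below 0.05, 8 were higher and 3 lower, and the median difference was 0.14. The called gene was Slc1a3, which encodes the glutamate and aspartate carrier EAAT1. Its brightest probe set read 672 and 1243 on WT and 3184 and 3856 on KO, a rise of 1.92 on the log2 scale (SE 0.28; limma adjusted p = 0.0324). All 5 of its tested probe sets passed, with differences from 1.61 to 1.92. The call was kept with each array left out and lost with no filter (adjusted p = 0.110), with no variance trend (0.0535) and with its probe sets averaged (0.0586). Both KO arrays lay above both WT arrays for 10 of the 23 and below for 4, beside 26.2% above and 27.5% below among all tested genes.

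Genes that use the carried sugar were compared in the same way, with the lactate and pyruvate carrier gene Slc16a1 counted in the glycolysis list. Of the 18 tested genes of that list, 2 fell, 1 rose and 15 did not pass, with a median of -0.18. Among all tested genes 1.36% fell and 1.21% rose. Of the 18, 5 were lower and 2 higher at an unadjusted limma p below 0.05. Both KO arrays lay below both WT arrays for 9 and above for 4, beside 27.5% and 26.2% of all tested genes. Slc16a1, the lactate and pyruvate carrier MCT1, fell from 3720.4 ± 464 to 1680 ± 253 (SD, n = 2; log2 difference -1.14, limma adjusted p = 0.0322), and the aldolase gene Aldoc fell by 1.09 (adjusted p = 0.0340). Eno3, the muscle form of enolase, rose by 0.998 (adjusted p = 0.0434), beside skeletal muscle markers that summed to 507% and 284% of WT on the KO arrays, whose part was not tested. None of the 3 calls was kept when either WT array was removed, with no filter, with no variance trend, with probe sets averaged or with centring on epithelial markers, and that of Eno3 was also lost without KO replicate 1 (adjusted p = 0.0614). Of 7 tested genes of lactose synthesis, 0 were called by limma, 0 had an unadjusted p below 0.05, and both KO arrays lay above both WT arrays for 2 (26.2% of all tested genes did so), the UDP-galactose carrier Slc35a2 (0.31, adjusted p = 0.319) and Pgm1 (0.28, adjusted p = 0.302).

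Genes of the amino acid response, the programme by which cells react to short amino acid supply, were compared likewise. Of 30 tested, 2 rose, 1 fell and 27 did not pass, beside the same 2.57% of all tested genes called in either direction. At an unadjusted limma p below 0.05, 7 were lower and 6 higher. Both KO arrays lay below both WT arrays for 12 and above for 8, beside 27.5% and 26.2% of all tested genes. The median was -0.01, with differences in both directions. Stc2, a secreted glycoprotein induced by stress, rose from 471 ± 15.1 to 2016 ± 174 (SD, n = 2), a log2 difference of 2.06 (limma adjusted p = 0.00359), and 2 further probe sets passed as well. Its call was kept in every alternative run. Eif4ebp1, a repressor of translation initiation, rose by 0.76 (adjusted p = 0.0369), and Mthfd2, a mitochondrial folate enzyme, fell by 1.04 (adjusted p = 0.0425). A second tested Mthfd2 probe set gave -1.11 and did not pass (limma adjusted p = 0.0553). Neither gene kept its call when either WT array was removed, with no filter, with probe sets averaged or with centring on epithelial markers. That of Eif4ebp1 was also lost with no variance trend (adjusted p = 0.0733) and that of Mthfd2 without KO replicate 1 (adjusted p = 0.0542). The 14 tested genes of the hypoxia response, which include regulators of glucose carriers, had a median of 0.24 and 0 limma calls (5 at an unadjusted p below 0.05), with Adm, the adrenomedullin gene, at 0.96 (adjusted p = 0.0853) and Arnt at 0.66 (adjusted p = 0.0765). A second Adm probe set passed (1.36, adjusted p = 0.0260), and a second Arnt probe set had the opposite sign (-0.61). The 22 tested genes of amino acid sensing by mTORC1 had a median of 0.09 and 0 limma calls (1 at an unadjusted p below 0.05), and the largest differences were those of the GTPase gene Rraga (-0.32, adjusted p = 0.206) and the arginine sensor gene Castor1 (0.31, adjusted p = 0.370).

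**Figure D5:**
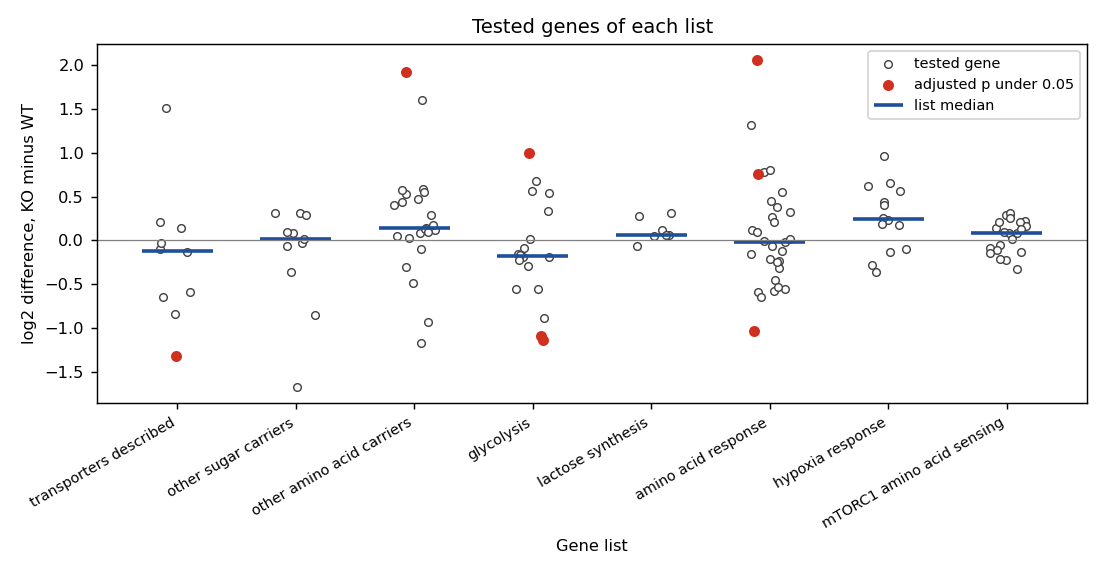
log2 difference (KO minus WT) of every tested gene in the transporter set and in 7 lists of related genes, with list medians as blue bars and called genes in red. Medians lie between -0.18 for glycolysis and 0.24 for the hypoxia response, and the called genes are Slc7a2, Slc1a3, Slc16a1, Aldoc, Eno3, Stc2, Eif4ebp1 and Mthfd2.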

How the data were processed

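RNA from mammary tissue was measured on 4 Affymetrix arrays, 2 labelled WT and 2 labelled KO. The deposited values are linear signal intensities, 1 per probe set. The tool was MAS5, according to the submitters' processing notes, with version and settings not given in the sources used here. The 2% trimmed mean signal was 500.0 on every array, so the authors scaled the arrays to one level, as read from the values. Of 45101 probe sets, 64 controls were left out. Symbols came from the platform annotation and were checked through Entrez identifiers, which changed 0 symbols. A gene was represented by its brightest probe set (highest mean log2 value).

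Signals were analysed as log2(signal + 16). Probe sets at or above the median of the mean log2 value, 7.15 (a signal of 125.9), were tested. The genotypes were compared in R 4.3.3 with limma 3.58.1 (lmFit, eBayes with a variance trend), with Benjamini-Hochberg adjustment over 22519 probe sets and a threshold of 0.05. The test was run on simulated data whose noise followed the fitted model, which checks the code and not whether the model fits these arrays. With 4 arrays there are 2 residual degrees of freedom for a probe set, which limits the precision. The limma p-values also draw on the variance of all tested probe sets, so they do not rest on a gene's own replicates alone. All of that variance comes from these 4 arrays. An exact permutation test of 2 against 2 arrays gives no two-sided p below 0.333 and was not used. Intervals are 95% intervals of the limma fit. The rule for named genes took every transporter probe set, Stat5a and Stat5b, up to 3 called genes of each pathway list by p (or, where a list had none, the 2 with the largest difference), and the 3 genes nearest in profile to the transporter with the largest difference. The transporters and lists were chosen with earlier results of these data known. Alternatives were another pseudocount, normalization, centring, filter or variance model, the mean of all probe sets, and each array left out.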

Additional observations from a re-analysis of the deposited data

How the results depend on the processing

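No paired analysis was possible because the labels give no replicate numbers: replicates 1 and 2 are names given here in deposit order and pair nothing. Of the 10 transporters 1 was called, and it was Slc7a2 with a pseudocount of 1 or 64, quantile normalization, median centring, the 75th percentile filter and no variance trend. Averaging the probe sets of a gene, or using no filter, 0 transporters were called, and with centring on epithelial markers the 1 called was Slc2a3 in place of Slc7a2. With an array left out the count ran from 0 (either WT array) to 2 (Slc7a2 and Slc2a3, without KO replicate 1). The median of the 10 differences ran from -0.47 without WT replicate 1 to 0.14 with epithelial centring, which moved the median of all tested genes from -0.01 to 0.25.

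Over all genes 292 were called, against 157 with epithelial centring, 27 with no filter, 127 with the 75th percentile filter, 137 with no trend, 126 when probe sets were averaged, and 43 to 601 with an array left out. For probe sets the count was 450, against 256, 38, 182 and 205 in the same order for the settings up to no trend, and 67 to 1021 with an array left out. Of the gene calls 47.3% were higher in KO, 61.7% with median centring and 65.0% with epithelial centring.

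Transporters with small differences changed sign. With epithelial centring Slc2a1 was at 0.16 and 0.18 (its probe sets 1434773_a_at and 1426599_a_at), Slc38a1 at 0.12 and Slc38a2 at 0.23. With median centring the same second Slc2a1 probe set was at 0.0060 and Slc38a2 at 0.056, and when probe sets were averaged Slc38a2 was at 0.00017. With an array left out the brightest probe sets ran from -0.38 to 0.18 for Slc2a1, from -0.56 to 0.28 for Slc38a1 and from -0.21 to 0.16 for Slc38a2. Other probe sets ran from -0.26 to 0.10 for Slc2a1 (1426599_a_at), from -0.16 to 0.59 for Slc1a5, from -0.77 to 0.10 for Slc38a1 and from -0.26 to 0.46 for Slc38a2 (1429593_at). The cause of these changes was not tested. The 8 transporter probe sets below the limit for testing have values only.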
